A study of Mus musculus with 8 samples.

Results

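Purkinje cells are the large inhibitory output neurons of the cerebellar cortex, and 9 genes that mark them were followed here in every library of a RIP-seq series whose tissue label is hippocampus. RIP-seq sequences the RNA that comes down with an antibody. The genes were Pcp2, Car8, Slc1a6, Itpr1, Calb1, Gng13, Ppp1r17, Pvalb and Rora, 9 of the 55401 genes counted. They were selected on their level, since cerebellar transcripts had been seen to be abundant in all libraries, and the levels are therefore given as a description, with no test. All libraries came from tissue of C57BL/6 mice, with no age, sex, genotype or treatment in the labels. The groups were 3 immunoprecipitates with an antibody to CaMKIIβ (a neuronal calcium and calmodulin dependent kinase subunit), 3 immunoprecipitates with control IgG, and 2 libraries of input RNA. The labels do not say whether libraries came from separate animals or pools, so p-values measure the spread between these libraries, which may be technical.

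In these cells glutamate from parallel fibres acts on metabotropic receptors, whose G protein switches on phospholipase C beta. The lipase makes inositol trisphosphate (IP3), which opens the IP3 receptor on the endoplasmic reticulum and lets calcium into the cytoplasm. Itpr1 encodes that receptor, and Car8 a carbonic anhydrase relative without enzyme activity that binds it and lowers its affinity for IP3. Calb1 (calbindin) and Pvalb (parvalbumin) buffer the calcium, and Slc1a6 (EAAT4) takes up glutamate at the synapse. Pcp2 is a modulator of G protein alpha subunits, Gng13 a G protein gamma subunit, and Ppp1r17 (G-substrate) a phosphatase inhibitor that is a target of cGMP-dependent kinase. Rora encodes the nuclear receptor RORα, which Purkinje cells need to mature, and which binds DNA at the half-site AGGTCA. Pcp2, Slc1a6 and Ppp1r17 are largely restricted to Purkinje cells in the brain, whereas hippocampal pyramidal and granule neurons also express Itpr1 and Calb1, and forebrain interneurons Pvalb.

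The promoter windows of 2 members with this restricted expression are shown because Rora is itself a member and its half-site could be looked for in them. They run from 250 bases before to 50 bases after a RefSeq start on GRCm38.p6, as minus strand sequence of chr8:3625498-3625797 for Pcp2 and plus strand sequence of chr10:78780246-78780545 for Slc1a6. Capitals mark AGGTCA or its reverse complement TGACCT.
Pcp2: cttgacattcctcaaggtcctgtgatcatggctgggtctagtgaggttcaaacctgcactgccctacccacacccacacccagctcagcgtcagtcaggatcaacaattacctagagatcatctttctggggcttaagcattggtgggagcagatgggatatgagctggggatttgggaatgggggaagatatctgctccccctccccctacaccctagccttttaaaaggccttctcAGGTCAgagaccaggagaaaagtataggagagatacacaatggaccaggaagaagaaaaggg
Slc1a6: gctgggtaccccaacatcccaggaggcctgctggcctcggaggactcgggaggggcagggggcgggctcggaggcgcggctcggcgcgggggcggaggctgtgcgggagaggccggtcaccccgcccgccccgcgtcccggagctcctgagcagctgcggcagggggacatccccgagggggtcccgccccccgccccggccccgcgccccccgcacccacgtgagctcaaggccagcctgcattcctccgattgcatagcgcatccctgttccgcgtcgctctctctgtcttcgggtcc
The Pcp2 match began 12 bases before the start. Windows were found for 5 members (Pcp2, Rora, Slc1a6, Pvalb and Gng13), and only Pcp2 held the letters, on either strand, in 3 of its 4 windows. Its windows with the match 12 and 87 bases before the start overlap and hold the same site. The letters stood in 16.3% of all 32851 RefSeq windows, and 18.1% of 27025 genes had a window that did, so a match in 1 of 5 members is near that background. The windows also differed in base composition, with 51% G and C in the Pcp2 window and 75.7% in that of Slc1a6.

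The 8 libraries held between 17273957 and 28138289 counts. CaMKIIβ RIP replicate 2 stood apart: 19247 genes had a count there, against 24865 to 31152 in the other 7 libraries. Some of the differences that rest on it are given with and without it. Levels are given as CPM, counts relative to the size of the library, on a scale shared by all 8 libraries, and between genes as CPM per kilobase of the gene's exon length in the count table. That length joins the exons of all transcripts of a gene, so it can exceed the length of the transcript that is expressed. In bulk tissue, fewer cells of a type and less RNA per cell cannot be told apart.

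Transcripts of Purkinje cells and of cerebellar granule neurons were at high levels in libraries labelled hippocampus. The summed level of the 9 genes was 831 to 904 CPM per kilobase in CaMKIIβ RIP, 840 to 875 in IgG RIP and 810 to 840 in Input. A list of 14 hippocampal and telencephalic neuron genes summed to 119 to 133 CPM per kilobase in CaMKIIβ RIP, 116 to 122 in IgG RIP and 109 in both Input libraries. The 9 Purkinje genes thus summed above those 14 genes in every library, with most of the sum in Itpr1, Pvalb, Car8 and Calb1. The 3 genes described above as largely restricted to Purkinje cells (Pcp2, Slc1a6 and Ppp1r17) summed to 97.1 to 110.3 CPM per kilobase in CaMKIIβ RIP, 100.5 to 110.4 in IgG RIP and 96.7 to 97.6 in Input. That is below the 14-gene sum, but over 3 genes instead of 14. Gene by gene, group means were 18.3 to 48.9 CPM per kilobase for the 3 genes, against 0.579 to 36.1 for the 14. The highest gene of the hippocampal list was Neurod2, a transcription factor that cerebellar granule neurons also express, at 36.1 ± 7.01 CPM per kilobase in CaMKIIβ RIP (SD, n = 3), 33.9 ± 2.28 in IgG RIP (n = 3) and 31.6 ± 0.967 in Input (n = 2). Wfs1, Prox1 and Bcl11b were at 7.70 to 21.2 CPM per kilobase as group means. Neurod6, a gene of pyramidal neurons named here after its values were seen, averaged 7.78 ± 2.40 CPM per kilobase in CaMKIIβ RIP, 9.86 ± 1.17 in IgG RIP and 14.9 ± 0.370 in Input. Emx1 (a transcription factor of cortical and hippocampal progenitors and excitatory neurons) and Spink8 (expressed in hippocampal pyramidal neurons), picked out after their values were seen, were near 0. Emx1 ranged over 0.988 to 3.39 CPM in CaMKIIβ RIP, 1.58 to 2.84 in IgG RIP and 1.42 to 1.60 in Input. Spink8 ranged over 0.241 to 0.662 CPM in CaMKIIβ RIP, 1.39 to 1.87 in IgG RIP and 2.38 to 2.66 in Input. Low levels per length also occurred among Purkinje genes outside the 9 members. Group means were 0.570 to 1.09 CPM per kilobase for Foxp2 and 0.537 to 6.04 for Pcp4. Those of Emx1 were 0.691 to 1.06 and those of Spink8 0.579 to 3.07.

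Cerebellar granule neurons, which make the parallel fibres, had a list of 10 genes that includes Fat2, Cbln1, Cbln3 and Gabra6. It summed to 1012 to 1072 CPM per kilobase in CaMKIIβ RIP, 1031 to 1076 in IgG RIP and 859 to 883 in Input. The 4 Bergmann glia genes summed to 189 to 210 CPM per kilobase in CaMKIIβ RIP, 204 to 211 in IgG RIP and 163 to 170 in Input. For the 5 cerebellar interneuron genes the sums were 43.6 to 46.2 in CaMKIIβ RIP, 39.6 to 42.9 in IgG RIP and 35.7 to 36.4 in Input. Pvalb is also expressed by interneurons of the cerebellar cortex and of the forebrain. The 8 forebrain GABA interneuron genes summed to 28.2 to 41.5 CPM per kilobase in CaMKIIβ RIP, 31.8 to 41.2 in IgG RIP and 32.7 to 36.4 in Input. The marker genes that were at 0 in a library were Lhx5 (of the Purkinje lineage) and Dlx5 in CaMKIIβ RIP replicate 2, and Gbx2 (of thalamus) in at least 1 CaMKIIβ RIP and 1 IgG RIP library. Of the other lists, 6 thalamus and midbrain genes summed to 33.9 to 39.4 CPM per kilobase in CaMKIIβ RIP, 33.3 to 34.6 in IgG RIP and 29.8 to 30.1 in Input. Choroid plexus genes, of which there were 3, summed to 397 to 550 in CaMKIIβ RIP, 345 to 383 in IgG RIP and 536 to 590 in Input. The value of 550 was that of CaMKIIβ RIP replicate 2, against 399 and 397 in replicates 1 and 3. Nearly all of these sums was Ttr, at group means of 357 to 555, with Folr1 at 2.13 to 2.47 and Kl at 5.12 to 6.71. For 3 genes of GABA synthesis and vesicle loading the sums were 98.0 to 105 in CaMKIIβ RIP, 93.9 to 98.0 in IgG RIP and 91.0 to 92.6 in Input. The part that these other cells play in the differences below was not tested.

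**Figure D1:**
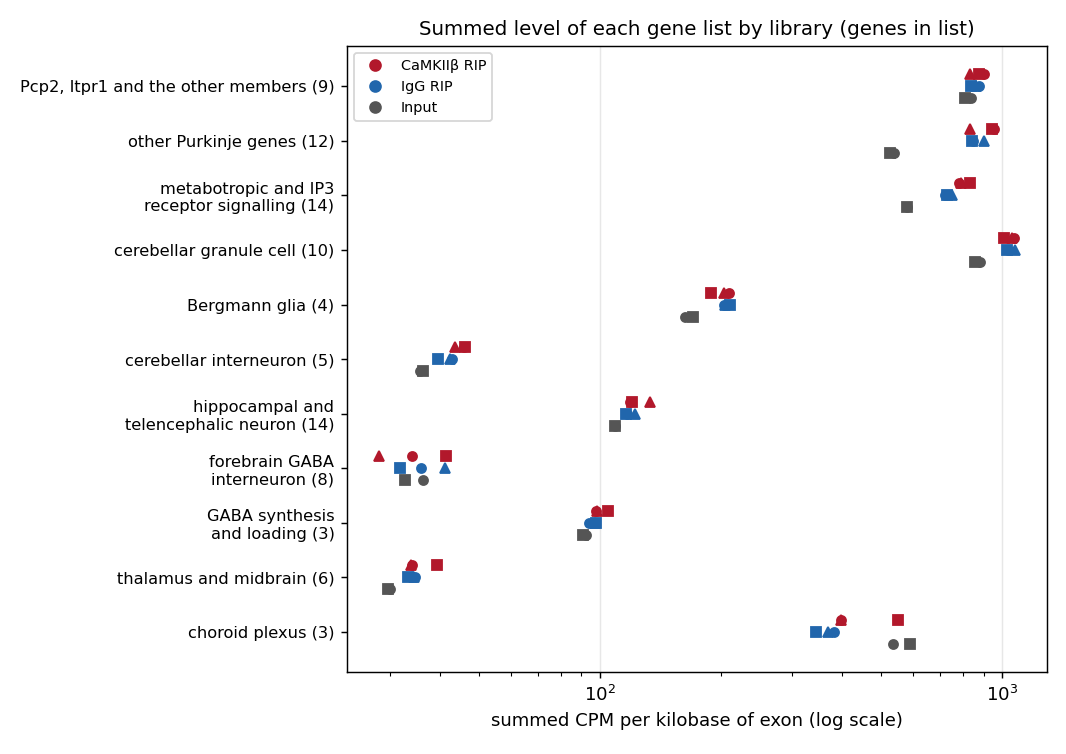
Summed level of each gene list in each library, in CPM per kilobase of exon on a log axis, with the number of genes of the list in brackets. Circles, squares and triangles are replicates 1, 2 and 3. The Purkinje members lie between 810 and 904 in all 8 libraries, and the 14 hippocampal and telencephalic genes between 109 and 133.

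Itpr1 had the highest level per length of the 9 genes in both kinds of immunoprecipitate and the third in Input. It stood at 386, 358 and 323 CPM per kilobase in CaMKIIβ RIP replicates 1 to 3, at 338, 326 and 357 in IgG RIP, and at 136 and 139 in Input. Among all genes of the table it ranked between 19 and 27 by level per length in CaMKIIβ RIP, 21 and 23 in IgG RIP, and 82 and 90 in Input. Pvalb and Car8 came next in the immunoprecipitates and led in Input. Pvalb averaged 158 ± 11.6 CPM per kilobase in CaMKIIβ RIP, 162 ± 17.1 in IgG RIP (SD, n = 3 each) and 229 ± 11.6 in Input (n = 2). Car8 averaged 137 ± 11.5 CPM per kilobase in CaMKIIβ RIP, 137 ± 8.48 in IgG RIP and 201 ± 6.65 in Input. Libraries of these 3 genes did not overlap one another within any group, and Calb1 was the fourth in every group, at 61.6 ± 5.90 CPM per kilobase in CaMKIIβ RIP, 58.8 ± 7.91 in IgG RIP and 99.1 ± 0.567 in Input.

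The other 5 members were lower and closer together, between 16.6 and 55.0 CPM per kilobase in the 8 libraries. Ppp1r17 was the fifth in all groups, at 43.4 ± 6.21 CPM per kilobase in CaMKIIβ RIP, 48.9 ± 1.65 in IgG RIP and 48.9 ± 2.03 in Input. Rora and Slc1a6 followed it, and Pcp2 and Gng13 had the lowest levels in each group. Several neighbours in the order could not be separated: Ppp1r17 from Slc1a6, Slc1a6 from Rora and Pcp2 from Gng13 overlapped in CaMKIIβ RIP, Calb1 from Ppp1r17 in IgG RIP, and Slc1a6 from Gng13 in Input. Pcp2 was at 21.7 ± 4.46 CPM per kilobase in CaMKIIβ RIP, 25.7 ± 1.42 in IgG RIP and 18.3 ± 1.41 in Input. In CPM, without the division by length, Rora (a long gene) stood higher in the order of each group, and Itpr1 led in Input too.

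**Figure D2:**
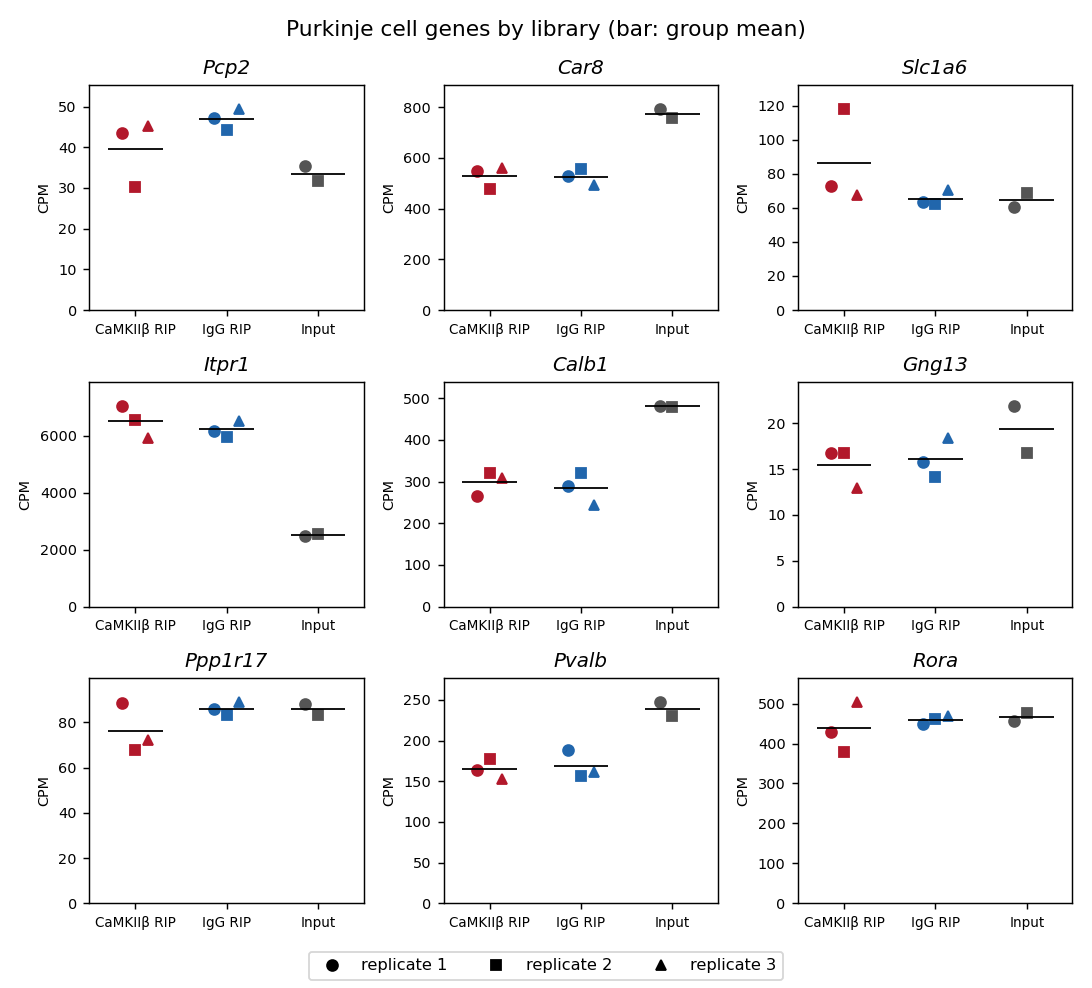
Level of each of the 9 genes in CPM (linear axes from 0), by library, with circles, squares and triangles for replicates 1, 2 and 3 and a bar at the group mean. Itpr1 lies at 5919 to 7064 CPM in CaMKIIβ RIP, 5964 to 6539 in IgG RIP and 2499 to 2554 in Input, while Car8, Calb1 and Pvalb are highest in Input, and Slc1a6 has 1 high library at 118 CPM.

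The antibody to CaMKIIβ was compared with control IgG to see which RNAs it brought down beyond the background of the assay. None of the 9 genes passed the threshold, an adjusted p under 0.05 in edgeR's quasi-likelihood test with Benjamini-Hochberg adjustment over all genes. Their adjusted p lay between 0.982 and 0.995, and the libraries of both groups overlapped for all 9. No gene of the whole table passed in either direction (0% of 20566 tested), nor did any by DESeq2 or limma-voom. At an unadjusted p under 0.05 there were 0 members and 721 genes. Over all genes, the libraries lay apart with CaMKIIβ RIP higher in 4.57% and lower in 7.33%. The median log2 fold change was -0.03 for the members, against -0.02 for all genes tested.

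The intervals show which differences this comparison leaves room for. Itpr1 was at 7064, 6562 and 5919 CPM in CaMKIIβ RIP, against 6183, 5964 and 6539 CPM in IgG RIP. Its log2 fold change was 0.08 ± 0.08 (SE), with a 95% interval of -0.11 to 0.26. Car8 had a log2 fold change of 0.02 with an interval of -0.19 to 0.23, and Calb1 one of 0.08 with an interval of -0.19 to 0.35. The widest intervals belonged to Gng13, at -0.49 to 0.40, and Slc1a6, at -0.03 to 0.85. Slc1a6 was at 73.1, 118 and 67.3 CPM in CaMKIIβ RIP, against 63.4, 62.3 and 70.5 CPM in IgG RIP. The high value is that of CaMKIIβ RIP replicate 2, and without it the log2 fold change was 0.11 instead of 0.41. The same library had the lowest Pcp2 of all 8, 30.3 CPM against 43.4 and 45.2 in the other CaMKIIβ RIP libraries and 47.1, 44.2 and 49.4 in IgG RIP. The ratio of Slc1a6 to Pcp2 per length was 3.32 in that library, against 1.43 and 1.27 in the other CaMKIIβ RIP libraries, 1.14 to 1.21 in IgG RIP and 1.45 to 1.84 in Input. Rora spanned 380 to 503 CPM in CaMKIIβ RIP and 450 to 468 CPM in IgG RIP, with the lowest value again in replicate 2. Without CaMKIIβ RIP replicate 2 the log2 fold change was -0.07 instead of -0.23 for Pcp2, and 0.03 instead of -0.06 for Rora.

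Set against Input, CaMKIIβ RIP had more Itpr1 and less Car8, Calb1 and Pvalb. Itpr1 was at 7064, 6562 and 5919 CPM in CaMKIIβ RIP, against 2499 and 2554 CPM in Input. Every immunoprecipitate library was thus far above both Input libraries, with a log2 fold change of 1.37 ± 0.11 (SE), 2.58-fold, and an adjusted p of 0.00285. The calcium buffer Calb1 was at 266, 321 and 309 CPM in CaMKIIβ RIP, against 482 and 479 CPM in Input, and fell by 0.68 ± 0.11 on the log2 scale (adjusted p = 0.0164). Car8 was at 549, 478 and 559 CPM in CaMKIIβ RIP, against 793 and 757 CPM in Input, and fell by 0.55 ± 0.11 (adjusted p = 0.0258). These 2 genes, which encode a calcium buffer and a partner of the IP3 receptor, went the other way from the receptor's own transcript. Pvalb was at 164, 177 and 153 CPM in CaMKIIβ RIP, against 247 and 230 CPM in Input, and fell by 0.53 ± 0.11 (adjusted p = 0.0332). For these 4 genes no library of CaMKIIβ RIP overlapped one of Input.

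The calls were 1 member higher, where 5.06% of 22095 genes tested were, and 3 members lower, where 3.40% were. Libraries lay apart with CaMKIIβ RIP higher for 1 member (18.8% of all genes) and lower for 4 (28.6%), which were the 3 called genes and Gng13. Gng13 was at 16.7, 16.7 and 12.9 CPM in CaMKIIβ RIP, against 21.9 and 16.8 CPM in Input, with a log2 fold change of -0.32 and an adjusted p of 0.523. The median log2 fold change was -0.17 for the members, against -0.12 for all genes. All 4 calls were lost without CaMKIIβ RIP replicate 1: no gene of the table passed then, and Itpr1 had a log2 fold change of 1.34 with an adjusted p of 0.0709. An unadjusted p under 0.05 was still found for 4607 genes, against 4984 with all libraries. The call on Pvalb was also lost without CaMKIIβ RIP replicate 3 (-0.47, adjusted p = 0.0529). Without Input replicate 1 those on Car8 (-0.53, 0.165) and Pvalb (-0.50, 0.318) were lost, and without Input replicate 2 those on Car8 (-0.60, 0.128), Calb1 (-0.70, 0.0703) and Pvalb (-0.60, 0.195). With a library left out the log2 fold changes lay between 1.34 and 1.44 for Itpr1, -0.60 and -0.42 for Car8, -0.70 and -0.58 for Calb1, and -0.60 and -0.47 for Pvalb. Without the CaMKIIβ RIP replicate 2 library that stood apart, all 4 held, and Pcp2 passed as well (log2 fold change 0.47, adjusted p = 0.0475).

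The same 4 genes passed in IgG RIP against Input, in the same directions and with smaller errors. Itpr1 was at 6183, 5964 and 6539 CPM in IgG RIP, against 2499 and 2554 CPM in Input, a log2 fold change of 1.36 ± 0.06 (2.56-fold, adjusted p = 7.87e-11). Calb1 was at 290, 321 and 245 CPM in IgG RIP, against 482 and 479 CPM in Input, and fell by 0.70 ± 0.08 (adjusted p = 4.49e-06). Car8 fell by 0.50 ± 0.06 (530, 557 and 492 CPM in IgG RIP, against 793 and 757 CPM in Input, adjusted p = 7.07e-06). Pvalb fell by 0.44 ± 0.08, with 189, 156 and 162 CPM in IgG RIP, against 247 and 230 CPM in Input (adjusted p = 2.16e-04). The groups did not overlap for any of these 4 genes, and each call held with any of the 5 libraries left out. Both comparisons with Input use the same 2 Input libraries, so their likeness is not independent.

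Pcp2 passed in this comparison, at 47.1, 44.2 and 49.4 CPM in IgG RIP, against 35.3 and 31.7 CPM in Input. It rose by 0.54 ± 0.10 on the log2 scale, 1.46-fold, with an adjusted p of 2.60e-04, and did not pass when all 8 libraries were fitted together (0.49, adjusted p = 0.0947). An antisense gene without a symbol overlaps Pcp2 and was given counts equal to 8.10% to 20.3% of those of Pcp2. Whether the authors counted by strand is not given in the sources used here, so reads of the pair may not be told apart. The same holds for Gng13 and the antisense gene Chtf18, whose counts equalled 13.2% to 41.3% of those of Gng13. In all, 2 members were higher in IgG RIP (20.1% of 22342 genes tested were) and 3 lower (18.7%). Libraries lay apart for 2 members that were higher (26.8% of all genes) and 3 that were lower (33.8%). With 5 of 9 genes called, the count is read against the 8653 of 22342 genes called in all. The median log2 fold change of the members was 0.03, against -0.02 for all genes.

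The remaining 4 members did not pass in IgG RIP against Input. Ppp1r17 had 85.8, 83.1 and 88.9 CPM in IgG RIP, against 88.4 and 83.4 CPM in Input, a log2 fold change of 0.06 with a 95% interval of -0.10 to 0.21. Rora had 450, 462 and 468 CPM in IgG RIP, against 457 and 476 CPM in Input, with an interval of -0.09 to 0.16. For Slc1a6 the interval was -0.11 to 0.26 and for Gng13 -0.52 to 0.11. The groups overlapped for all 4 of these genes. When libraries were scaled by their totals alone, the median of all genes moved by -0.17 in CaMKIIβ RIP against Input and by -0.23 in IgG RIP against Input. The share of called genes that were higher was then 33.4% instead of 59.8% in CaMKIIβ RIP against Input, and 30.0% instead of 51.8% in IgG RIP against Input. Under that scaling Rora turned to -0.19 in IgG RIP against Input and passed as lower (adjusted p = 0.0100), as did Gng13, at -0.43 (0.0288), which made 5 members lower.

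**Figure D3:**
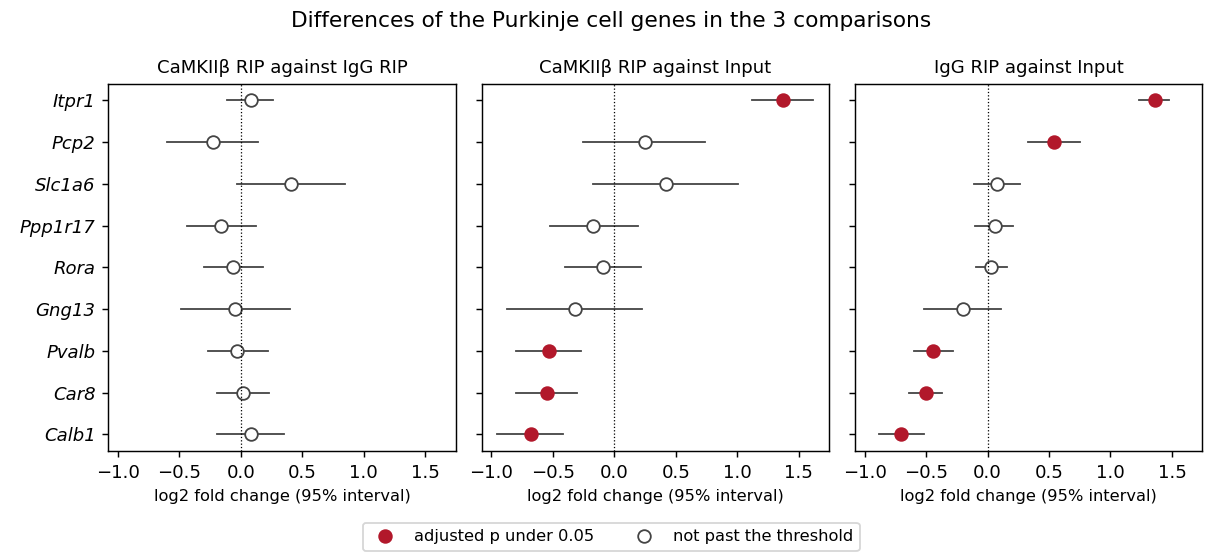
Log2 fold change of each gene in the 3 comparisons with its 95% interval, filled where the adjusted p was under 0.05. All intervals in CaMKIIβ RIP against IgG RIP include 0, and in both comparisons with Input Itpr1 lies near 1.4 while Calb1, Car8 and Pvalb lie between -0.70 and -0.44.

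Ratios between members within a library do not depend on the scaling. Itpr1 over Car8, per length, was 2.23 to 2.89 in CaMKIIβ RIP and 2.25 to 2.80 in IgG RIP, against 0.663 and 0.710 in Input. Per length, the receptor was thus above its partner in all 6 immunoprecipitates and below it in both Input libraries. Without the division by length Itpr1 was above Car8 in Input too, at means of 2526 and 775 CPM. Which of the 2 genes is higher in Input therefore depends on the exon lengths used. Calb1 over Car8 stayed within 0.385 to 0.533 in CaMKIIβ RIP, 0.395 to 0.458 in IgG RIP and 0.484 to 0.503 in Input. Together the 9 genes held 0.741% to 0.831% of counts in CaMKIIβ RIP, 0.749% to 0.772% in IgG RIP and 0.510% to 0.512% in Input. That difference came from Itpr1: the other 8 genes held 0.156% to 0.167% in CaMKIIβ RIP, 0.151% to 0.166% in IgG RIP and 0.233% to 0.238% in Input.

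Exon length moved with these differences over the whole table. In CaMKIIβ RIP against Input the median log2 fold change of all genes was -0.41 for genes under 1 kb and -0.01 for genes over 8 kb, and in IgG RIP against Input it was -0.21 and 0.13. Itpr1, with 18319 bases of exon, is in the class over 8 kb, Calb1 (4846 bases) in that of 4 to 8 kb, Car8 (3853 bases) in that of 2 to 4 kb and Pvalb (1041 bases) in that of 1 to 2 kb. Fits with a trend on length removed are given next, but whether length caused the members' differences was not tested. The trend that was removed was a loess curve, which lay further from 0 than the class medians in CaMKIIβ RIP against Input: it was -0.58 at the length of Pcp2 and -0.72 at that of Pvalb, where the median of their class was -0.26. Its removal moved the median of all genes by 0.22 in that comparison, to 0.10, and by 0.07 in IgG RIP against Input. With the trend on length removed, Itpr1 remained higher than Input, by 1.34 in CaMKIIβ RIP (adjusted p = 7.55e-04) and by 1.20 in IgG RIP (8.35e-13). Calb1 remained lower, at -0.48 in CaMKIIβ RIP and -0.69 in IgG RIP. Pvalb did not pass either way, at 0.19 in CaMKIIβ RIP (adjusted p = 0.357) and -0.17 in IgG RIP (0.0902), and Car8 passed only in IgG RIP (-0.44), with -0.26 and an adjusted p of 0.158 in CaMKIIβ RIP. Pcp2, with 1828 bases, then passed as higher in both, at 0.80 in CaMKIIβ RIP (adjusted p = 0.0419) and 0.75 in IgG RIP (4.15e-06). Rora, with 13071 bases, was at -0.08 in both.

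**Figure D4:**
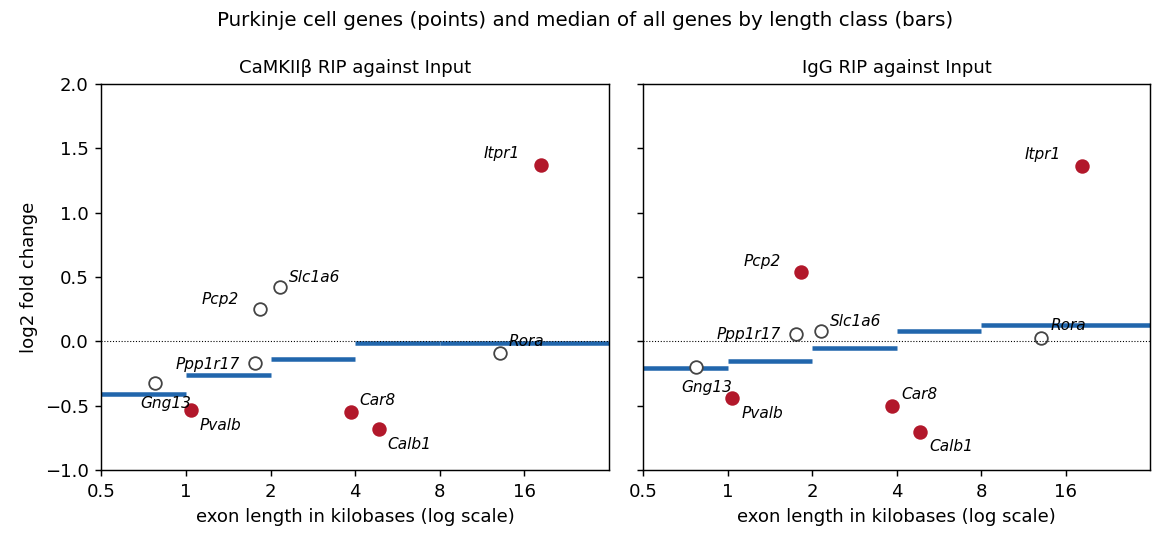
Log2 fold change against Input of each gene (points, filled where the adjusted p was under 0.05) by its exon length in kilobases on a log axis, for both antibodies, with horizontal bars at the median of all genes in each length class. Itpr1 lies more than 1 above the bar of its class in both panels and Rora, of the same class, lies close to it, while Car8 and Calb1 lie below theirs.

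The wider set of Purkinje genes, 12 further markers, was higher against Input more often than lower. In CaMKIIβ RIP against Input 2 of 12 passed as higher and 0 as lower, and in IgG RIP against Input 8 passed as higher and 2 as lower. Of all genes 5.06% were higher and 3.40% lower in CaMKIIβ RIP, whereas 20.1% were higher and 18.7% lower in IgG RIP. In the list 8 genes had over 4 kb of exon, 5 of them over 8 kb. Genes of 4 to 8 kb were higher in 8.32% of cases in CaMKIIβ RIP and 30.2% in IgG RIP, and genes over 8 kb in 14.7% and 41.2%. The list's median log2 fold change was 0.32 in both, against -0.12 and -0.02 for all genes. This was not particular to Purkinje genes. In the same 2 comparisons the median was 0.55 and 0.38 for the hippocampal and telencephalic list. It was 0.45 and 0.37 for cerebellar interneurons and 0.31 and 0.41 for Bergmann glia. Lists with lower medians included granule cells (0.06 and 0.09) and choroid plexus (-0.01 and -0.16). Aldoc (zebrin II, a glycolytic enzyme of some Purkinje cells and of astrocytes) rose against Input, by 0.55 with the antibody to CaMKIIβ (adjusted p = 0.0235) and by 0.49 with IgG (4.51e-06). Rgs8, a regulator of G protein signalling, and Dner, a Notch ligand that Bergmann glia respond to, rose in IgG RIP, by 0.33 and 0.20. In CaMKIIβ RIP they were at 0.29 and 0.41 and did not pass (adjusted p 0.148 and 0.125).

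Pcp4, a calmodulin regulator strongly expressed in Purkinje cells and in some hippocampal neurons, was singled out after its values were seen, because it was near 0. It had 15, 2 and 19 counts in CaMKIIβ RIP (0.621, 0.116 and 0.915 CPM) and 15, 39 and 34 counts in IgG RIP (0.675, 1.81 and 1.27 CPM), against 67 and 208 counts in Input (3.46 and 8.94 CPM). Its log2 fold change was -2.26 ± 0.40 in IgG RIP against Input (adjusted p = 2.24e-04) and -3.46 ± 0.87 in CaMKIIβ RIP against Input (adjusted p = 0.0523). The 2 Input libraries differed from each other by more than 2-fold. Pcp2 had between 521 and 1320 counts in the same libraries.

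Of 14 genes of metabotropic glutamate and IP3 receptor signalling, 4 rose and 0 fell in CaMKIIβ RIP against Input, and 9 rose and 1 fell in IgG RIP against Input, beside the same shares over all genes (5.06% and 3.40%, 20.1% and 18.7%). In this list 11 genes had over 4 kb of exon, 4 of them over 8 kb, so the shares of those length classes apply to most of it. In CaMKIIβ RIP against IgG RIP 0 of these 14 and 0 of the 12 Purkinje genes passed. The 4 that rose in CaMKIIβ RIP were Plcb3 (a phospholipase C beta), the endoplasmic reticulum calcium pump Atp2a2, the plasma membrane calcium pump Atp2b2 and the ryanodine receptor Ryr1, which also releases calcium from the reticulum. Plcb3 rose by 1.03 ± 0.13 in CaMKIIβ RIP and by 0.84 ± 0.09 in IgG RIP (adjusted p 0.00851 and 1.05e-06). Atp2b2 was at 2220 ± 362 CPM in CaMKIIβ RIP and 2413 ± 95.9 CPM in IgG RIP, against 1246 ± 83.4 CPM in Input, and rose by 0.84 and 1.01. The rise of Ryr1 was 0.85 with the antibody to CaMKIIβ and 0.86 with IgG, and that of Atp2a2 0.50 and 0.29. Gnaq, a G protein alpha subunit that couples receptors to phospholipase C beta, was the gene that fell in IgG RIP, by 0.40 (adjusted p = 7.37e-05), while its relative Gna11 rose by 0.28. Plcb4, another phospholipase C beta of Purkinje cells, was at 251 ± 3.43 CPM in IgG RIP, against 283 ± 1.11 CPM in Input, and did not pass (adjusted p = 0.122). The calcium pumps are expressed by many neurons, and the list's median was 0.36 for CaMKIIβ RIP and 0.28 for IgG RIP against Input, beside -0.12 and -0.02 for all genes. The hippocampal and telencephalic list had higher medians, 0.55 and 0.38, and the granule cell list lower ones, 0.06 and 0.09. The calls of both lists against Input in CaMKIIβ RIP were also lost without replicate 1, since no gene passed then.

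The lists of other cerebellar cells also held calls in both directions against Input. In IgG RIP 4 of 10 granule cell genes were higher and 3 lower, and in CaMKIIβ RIP 3 were higher and 1 lower. Of the 14 hippocampal and telencephalic genes 8 were higher and 2 lower in IgG RIP, and 2 were higher and 0 lower in CaMKIIβ RIP. These counts too stand beside 20.1% of all genes higher and 18.7% lower in IgG RIP, and 5.06% and 3.40% in CaMKIIβ RIP. Fat2, a long granule cell gene with 14528 bases of exon, was at 3822 to 4755 CPM in CaMKIIβ RIP and 4263 to 4554 CPM in IgG RIP, against 1506 to 1608 CPM in Input, whereas Gabra6 was at 183 to 256 CPM in CaMKIIβ RIP and 206 to 228 CPM in IgG RIP, against 417 to 419 CPM in Input. Differences of the size seen for Itpr1 and Calb1 thus also occurred between genes of another cerebellar cell type.

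The genes whose log2 CPM followed Itpr1 most closely over the 8 libraries, among 15360 genes whose mean log2 CPM was 1 or more, included Mtor (Pearson r = 0.9991) and Fasn (0.9986). Mtor encodes a growth-regulating kinase and Fasn fatty acid synthase, and both have a long total exon length, of 10109 and 10947 bases. For Pcp2 they were Zfp609 (0.9917), Naa80 (0.9888) and Pprc1 (0.9885). The 8 points fall into 3 groups of libraries, so these values describe the libraries and carry no p.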

How the data were processed

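The deposited table held raw read counts per gene for 8 libraries. The authors made these counts, per the submitters' processing notes, on GRCm38.p6 with featureCounts 2.0.1 after alignment by STAR 2.7.3a and trimming by cutadapt 2.10 and Trim Galore 0.6.4. Annotation release, strand setting and the treatment of reads with several positions are not given in the sources used here. Columns were matched to samples by name. Genes had Ensembl identifiers only, and symbols came from RefSeq genes that shared at least 0.5 of the joint span (reciprocal best, with no second partner at 0.8 of the best), which named 34132 of 55401 genes holding 96.1% of counts, all 9 members among them.

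For each comparison only the libraries of its groups entered the fit, by edgeR 4.0.16 (R 4.3.3), with TMM scaling, a filterByExpr minimum of 10 counts (total 15) and the robust quasi-likelihood F test over all genes, with a threshold of 0.05 on the Benjamini-Hochberg adjusted p. All 9 members passed the filter in each comparison. The procedure was tested on simulated counts. Alternatives were RLE and library size scaling, no filter, DESeq2 1.42.0, limma-voom (limma 3.58.1), all 8 libraries fitted together, replicate number as a block, a loess trend on exon length removed (span 0.5, prior count 2) and each library left out. CPM used TMM over all 8 libraries. Motif matches were counted in RefSeq promoter windows. Python 3.11.15 with pandas 2.3.3 made the tables, and matplotlib 3.10.9 the figures.

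The members and the 10 lists were chosen with earlier results of these data known. Named were all members, at most 4 genes per list with the highest CPM per kilobase, any gene of the receptor signalling list, and the 3 genes most like Pcp2 and Itpr1. Emx1, Spink8, Neurod6, Foxp2, Pcp4 and the genes at 0 were named after their values were seen. Some results of the lists are not reported here.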

Additional observations from a re-analysis of the deposited data

How the results depend on the processing

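In CaMKIIβ RIP against IgG RIP 0 members and 0 genes passed under every alternative. Against Input, CaMKIIβ RIP had 1 member higher and 3 lower. With the replicate block 2 were higher (Slc1a6 passed, at 0.54 with an adjusted p of 0.0126), with the length trend removed 3 were higher and 1 lower, and Pvalb turned to 0.19. Leaving out each library gave 0 to 2 higher and 0 to 3 lower. In IgG RIP against Input, with 2 higher and 3 lower, 1 was higher in the fit of all 8 libraries, 4 with the length trend removed (Slc1a6 and Ppp1r17 passed), and 5 were lower with library size scaling, where Rora turned to -0.19. The replicate block changed no other call of a member. Deviations of same-numbered libraries from their group means had correlations between -0.0478 and 0.0621. With 3 or 2 libraries per group these values cannot show whether such libraries share animals or a preparation, and the labels do not say. Over all genes, CaMKIIβ RIP against Input called 1868, against 4205 with the replicate block, 3448 by DESeq2, 3833 in the fit of all 8 libraries, 2866 without the filter, 3059 with the length trend removed (82.4% of them higher) and 0 to 4089 with a library left out. IgG RIP against Input called 8653, against 3676 in the fit of all 8 libraries. With 2 Input libraries, and Gng13 at 268 to 493 counts, small differences may have gone undetected, although Dner passed at 0.20 in IgG RIP against Input.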
